A study of Mus musculus with 6 samples.

Results

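Axon guidance molecules are secreted or membrane-bound cues and the surface receptors that read them, and they steer growing axons by attraction or repulsion. The families described here are the semaphorins with their plexin and neuropilin receptors, the ephrins with the Eph receptor tyrosine kinases, the Slits with the Robo receptors, and the netrins with Dcc and the Unc5 receptors. In the adult cord many of them stay expressed in neurons, glia, meninges and vessels, and several are known as repellents of regrowing axons in injured tissue. Members were all genes whose symbol belongs to one of these families and whose counts summed to at least 10 over the 6 libraries. Of 68 symbols in these families 65 met that minimum, among 21524 genes with at least 1 count. Robo3 and Unc5a, with 4 counts each, and Ntn5, with 6, were below it.

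The injured group (SCI) was 3 wildtype C57BL/6 mice whose cord was bruised on 1 side at cervical level 5, at 50 kdyn, and taken 4 h later for RNA. The comparison group (sham) was 3 mice of the same strain and genotype that had bone over the cord removed (laminectomy) and no contusion. Neither the animals' age and sex nor the time at which sham tissue was taken is stated in the labels. The libraries read the 3′ end of transcripts, so a count does not scale with transcript length, and levels are given as CPM, a library's counts scaled to a common total and then adjusted by the TMM method (trimmed mean of M values). The question was which of these families differ in transcript level between contused and sham cord.

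The libraries held 3407176 to 11543633 counts, and 62 to 65 of the 65 members were detected in each. Cord markers were present in every library, with the neuronal list at 5269 to 7688 CPM in sham and 5785 to 6079 CPM in SCI. Transcripts of 22 hepatocyte genes were present as well, at 6.25% to 13.9% of CPM in sham and 7.96% to 9.43% in SCI, and sham 2 held the most. Albumin alone was at 63500 CPM in sham 2 and at 25700 to 35300 CPM in the other 5 libraries. Erythroid genes differed between the groups, with 5 of 5 tested called higher after contusion and a summed level of 611 to 841 CPM in sham and 1584 to 4282 CPM in SCI. The summed neutrophil markers (19.2 to 51.4 CPM in sham, 55.2 to 77.2 in SCI, 0 of 6 called) and platelet markers (4.43 to 8.68 and 14.1 to 18.2 CPM, 1 of 3 called higher, Pf4) did not overlap either. Most of the neutrophil sum in SCI was S100a8 and S100a9, at means of 23.4 and 27.6 CPM (10.4 and 12.5 CPM in sham). Of 6 tested neutrophil markers 4 were higher at an unadjusted edgeR p under 0.05. The groups overlapped for Camp (log2 fold change -0.40 ± 0.69, SE) and Mmp9 (0.06 ± 0.39). Most of the platelet sum in SCI was Pf4, at 7.33 to 9.67 CPM, and the other platelet markers overlapped. Of 8 microglial markers 1 was called lower, P2ry12 at -1.91 ± 0.37. The list did not share a direction. At an unadjusted edgeR p under 0.05, 1 marker was higher and 3 were lower, P2ry12 among them. Its summed level overlapped, at 295 to 364 CPM in sham and 317 to 408 CPM in SCI. Beyond a fit with the hepatocyte marker level as a covariate, given below, the part of these transcripts in the values below was not tested. All these values are from bulk tissue, in which fewer cells of a type and less RNA per cell cannot be told apart.

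None of the 59 guidance genes that passed the filter on low counts was called higher or lower after contusion (edgeR quasi-likelihood test, Benjamini-Hochberg adjusted p of at least 0.125). Over all 13560 genes tested, 0.885% were called higher and 0.0442% lower (0.929% in all). At an unadjusted edgeR p under 0.05 there were 3 members higher and 3 lower, or 10.2% of those tested, where all genes gave 4.27% higher and 3.11% lower (7.38% in all). DESeq2 and limma voom also called 0 members. The groups did not overlap in 4 members that were higher and 2 that were lower, beside 7.73% and 5.94% of all genes (13.7% in all). These shares are near the background and are not a result about the guidance genes.

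As a set the guidance genes were centred close to 0. Their median log2 fold change of SCI over sham was 0.06, and 54.2% of them were positive, beside 49.7% of all genes tested and a median of -0.00 over all genes. The median size of the log2 fold change regardless of sign was 0.25 in the members and 0.19 over all genes. In 35 of 59 members (59.3%, beside 71% of all genes tested) the 95% interval of the fold change lay inside a 2-fold difference in either direction. For the other 24 the interval reached past 2-fold on at least 1 side, so a difference of that size was not excluded by these libraries. Together the ligands summed to 407 ± 17.8 CPM in sham and 398 ± 33.3 CPM in SCI (SD, n = 3 mice each), and the receptors to 539 ± 23.1 and 532 ± 41.8 CPM.

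**Figure D1:**
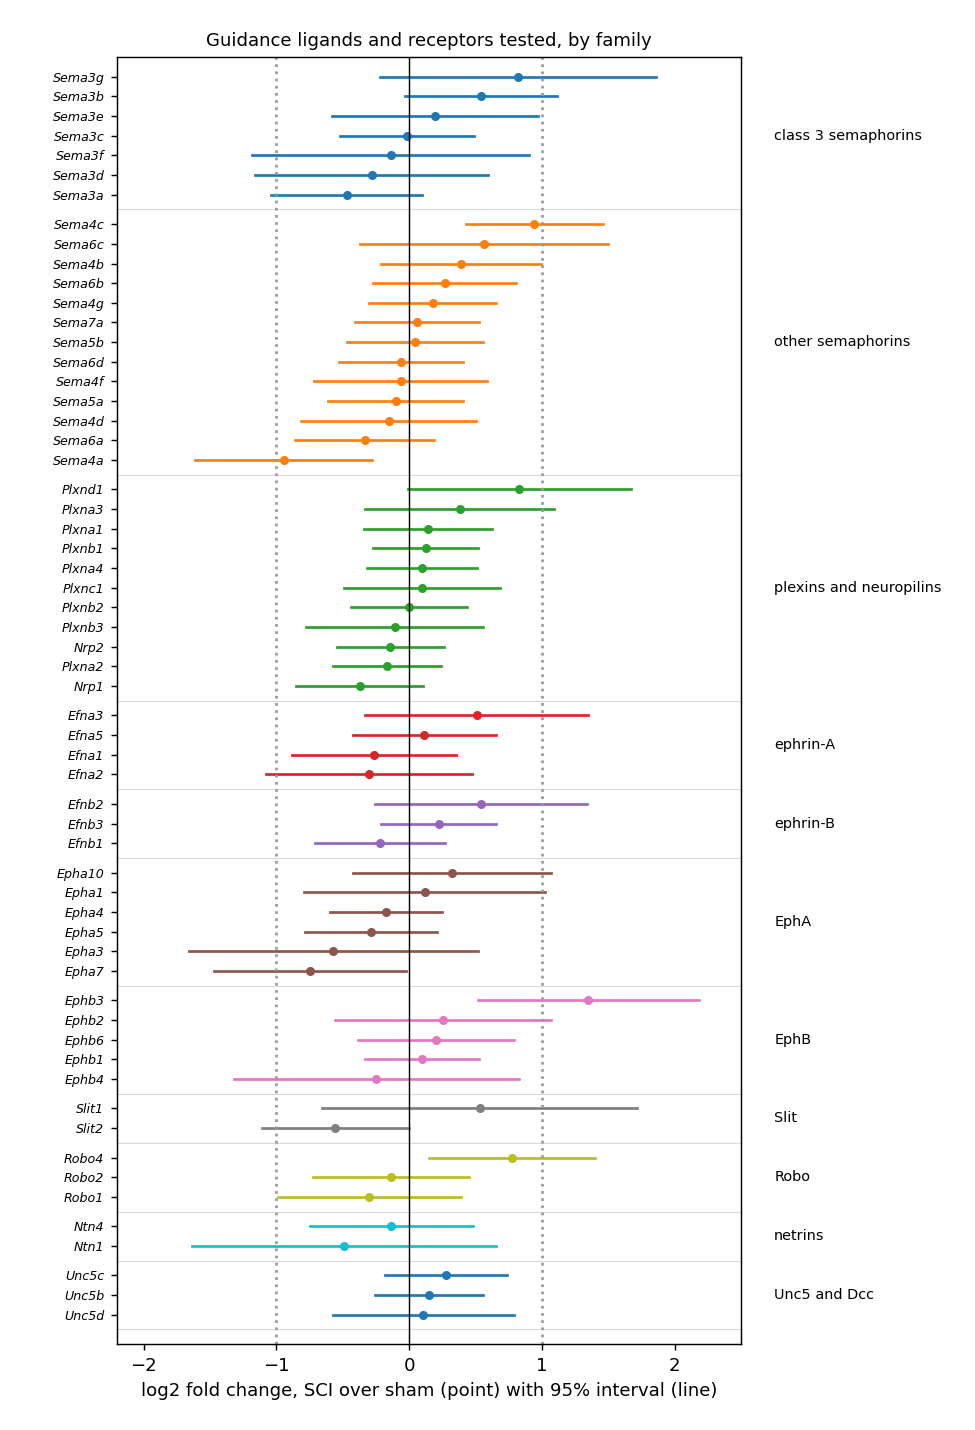
Log2 fold change of SCI over sham (point) with its 95% interval (line) for the 59 tested guidance genes, grouped and coloured by family, with dotted lines at a 2-fold difference in either direction. Most intervals include 0, and the points furthest out are Ephb3 at 1.35 and Sema4a at -0.94.

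The members furthest from 0 relative to their error were the semaphorin Sema4c and the receptor Ephb3. Sema4c, a membrane semaphorin whose receptor is plexin-B2, was at 8.01, 6.84 and 7.86 CPM in sham 1 to 3 and at 16.3, 15.3 and 11.5 CPM in SCI 1 to 3. Every SCI library lay above every sham library, and the sham values were close together. Its log2 fold change was 0.94 ± 0.24 (SE), with a 95% interval of 0.43 to 1.46 and an adjusted p of 0.125 (edgeR quasi-likelihood test). Without single libraries its log2 fold change ran from 0.84 to 1.06 and was not called, and with the hepatocyte marker level as a covariate it was 0.91 ± 0.23 and called (adjusted p = 0.0431). The Sema4c gene lies at chr1:36548639-36558349 (GRCm38, minus strand, ENSMUSG00000026121) and overlaps the opposite-strand gene D430040D24Rik, whose reads cannot be told apart if strand was not used in counting.

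Ephb3, a receptor tyrosine kinase for ephrin-B ligands, was at 1.97, 1.44 and 3.25 CPM in sham 1 to 3 and at 4.71, 6.21 and 4.96 CPM in SCI 1 to 3. These levels rest on 15, 15 and 12 reads in sham and 39, 43 and 25 in SCI, and the groups did not overlap. The log2 fold change was 1.35 ± 0.39 (SE), with a 95% interval of 0.52 to 2.19 and an adjusted p of 0.221 (edgeR quasi-likelihood test). It ran from 1.08 without sham 2 to 1.64 without sham 3 and was not called in either. Ephb3 lies at chr16:21204755-21223305 (GRCm38, plus strand, ENSMUSG00000005958).

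The 250 bases before the RefSeq start of these 2 genes are shown because they were the pair with the smallest p and with separated groups. Both were searched for the AP-1 motif (TGACTCA or TGAGTCA), the cyclic AMP response element (TGACGTCA) and the GC box (GGGCGG) on both strands, and matches are in capitals. The Sema4c stretch is chr1:36558382-36558631 on the minus strand, 64.4% G or C, upstream of the outermost of 2 starts in the table. The Ephb3 stretch is chr16:21204545-21204794 on the plus strand, 65.6% G or C. The gene position given above, from GENCODE, begins at 21204755, so the last bases of this stretch lie inside the gene in that annotation.
Sema4c: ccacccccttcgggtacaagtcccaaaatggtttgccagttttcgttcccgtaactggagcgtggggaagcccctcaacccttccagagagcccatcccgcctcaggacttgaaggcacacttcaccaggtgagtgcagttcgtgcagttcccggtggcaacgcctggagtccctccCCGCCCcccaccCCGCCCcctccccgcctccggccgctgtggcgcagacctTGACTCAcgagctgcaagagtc
Ephb3: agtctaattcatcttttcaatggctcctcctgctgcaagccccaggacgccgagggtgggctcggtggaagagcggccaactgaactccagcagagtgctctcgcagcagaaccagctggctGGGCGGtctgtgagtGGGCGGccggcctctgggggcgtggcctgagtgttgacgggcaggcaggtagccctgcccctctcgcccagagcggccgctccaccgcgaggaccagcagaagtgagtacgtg
The Sema4c stretch held 1 AP-1 motif, whose first base is at -22 from the start, and 2 GC boxes, and the Ephb3 stretch held 2 GC boxes and neither of the other motifs. Over all 32851 RefSeq promoters of that length (GRCm38.p6), 4.46% held the AP-1 motif, 1.55% the cyclic AMP response element and 32.7% a GC box. Of the 65 members 55 had an entry, with 71 starts. Of those stretches 2 (2.82%) held the AP-1 motif (Sema4c and Sema6b) and 1 (1.41%) the cyclic AMP response element (Epha2). A GC box was in 50 (70.4%), so it is usual in these genes. A match describes letters only and says nothing of binding.

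**Figure D2:**
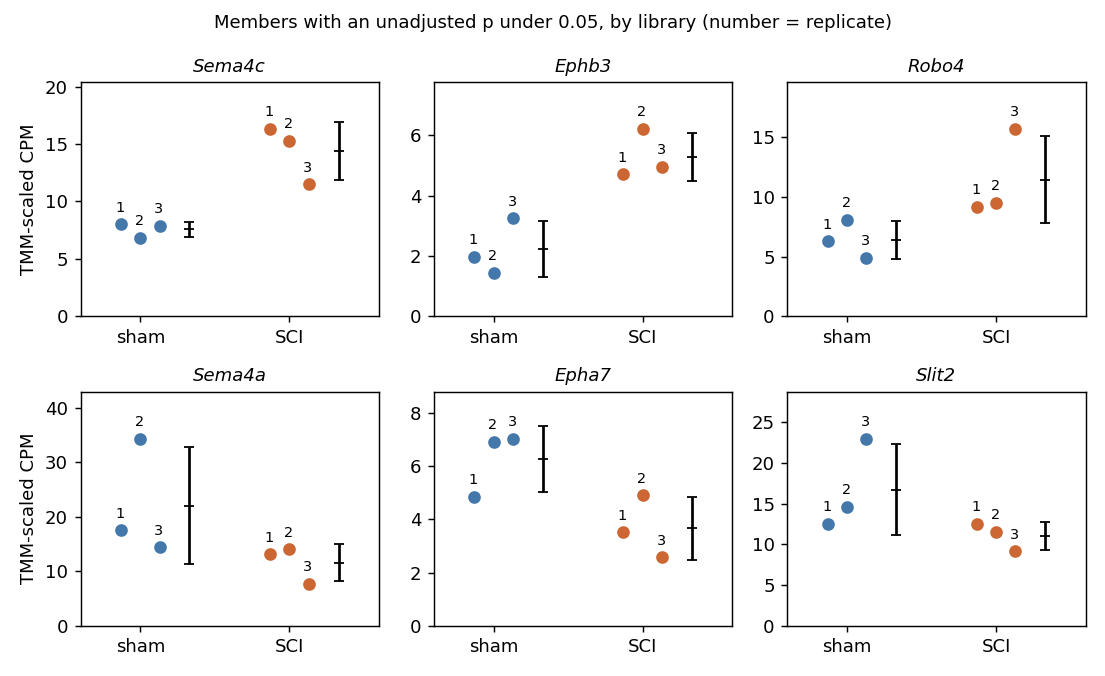
TMM-scaled CPM of the 6 members with an unadjusted p under 0.05, 1 point per library with its replicate number, and the mean ± SD of each group in black. Sema4c and Ephb3 are higher in every SCI library than in any sham library, and the highest library is sham 2 for Sema4a and sham 3 for Slit2.

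Among the class 3 semaphorins, secreted cues of which most are repellents that bind neuropilins with plexins, 3 of 7 members had a positive fold change. The median was -0.01. Their summed level was 45.0 ± 7.51 CPM in sham and 43.5 ± 4.76 CPM in SCI. Sema3a, the best known repellent of this class and its most abundant member here, was at 15.1, 10.8 and 16.8 CPM in sham and 12.6, 7.22 and 10.5 CPM in SCI. The groups overlapped, and the log2 fold change was -0.47 ± 0.27 (SE, adjusted p = 0.768). Sema3b was the member with the smallest p and the tightest groups, at 5.38, 5.78 and 5.42 CPM in sham and 7.98, 8.52 and 7.73 CPM in SCI. Its groups did not overlap, yet the fold change of 0.54 ± 0.27 did not pass the test (adjusted p = 0.708).

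Of these 7 genes, Sema3a, Sema3c, Sema3d and Sema3e lie on chromosome 5 between 12383385 and 17730268, and Sema3b and Sema3f lie near each other on chromosome 9. Those on chromosome 5 had log2 fold changes of -0.47 ± 0.27 (Sema3a), -0.01 ± 0.24 (Sema3c), -0.28 ± 0.41 (Sema3d) and 0.19 ± 0.36 (Sema3e). Each of their 95% intervals included 0, so their signs are not resolved. Sema3g, which is known from arterial endothelium, was at 1.05 to 1.73 CPM in sham and 1.59 to 3.61 CPM in SCI, with a wide 95% interval of -0.22 to 1.86.

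The other semaphorins, most of them membrane proteins, were the larger ligand group, with a summed level of 245 ± 18.5 CPM in sham and 237 ± 20.3 CPM in SCI. Of 13 members 7 were positive, the median log2 fold change was 0.04, and in 10 the 95% interval excluded a 2-fold difference either way. Sema6a, a transmembrane semaphorin that binds plexin-A2 and plexin-A4, was the most abundant, at 45.6, 57.9 and 49.6 CPM in sham and 48.7, 49.2 and 22.8 CPM in SCI. SCI 3 was the low library, and the fold change of -0.33 ± 0.25 was not called (adjusted p = 0.863). Without SCI 3 it was -0.071. Sema4g was at 34.3, 52.9 and 34.2 CPM in sham and 40.0, 39.3 and 59.5 CPM in SCI, and its groups overlapped.

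Sema4a, a membrane semaphorin studied mainly in immune cells, was the member furthest below 0. It was at 17.5, 34.4 and 14.4 CPM in sham and 13.1, 14.0 and 7.73 CPM in SCI. The groups did not overlap, but sham 3 and SCI 2 nearly touched, and sham 2 was the highest library. The log2 fold change was -0.94 ± 0.31 (SE, adjusted p = 0.351 by edgeR), and it was -0.46 ± 0.27 without sham 2 (adjusted p = 0.676). When genes with few counts were kept in, it was called at the same size (-0.94 ± 0.24, adjusted p = 0.0120). Sham 2 also held the most hepatocyte transcripts, 13.9% of CPM against 8.90% in sham 1 and 6.25% in sham 3. With the hepatocyte level as a covariate the Sema4a fold change was -0.76 ± 0.26 and was not called (adjusted p = 0.181). The part of the liver transcripts in this difference was not tested further.

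**Figure D3:**
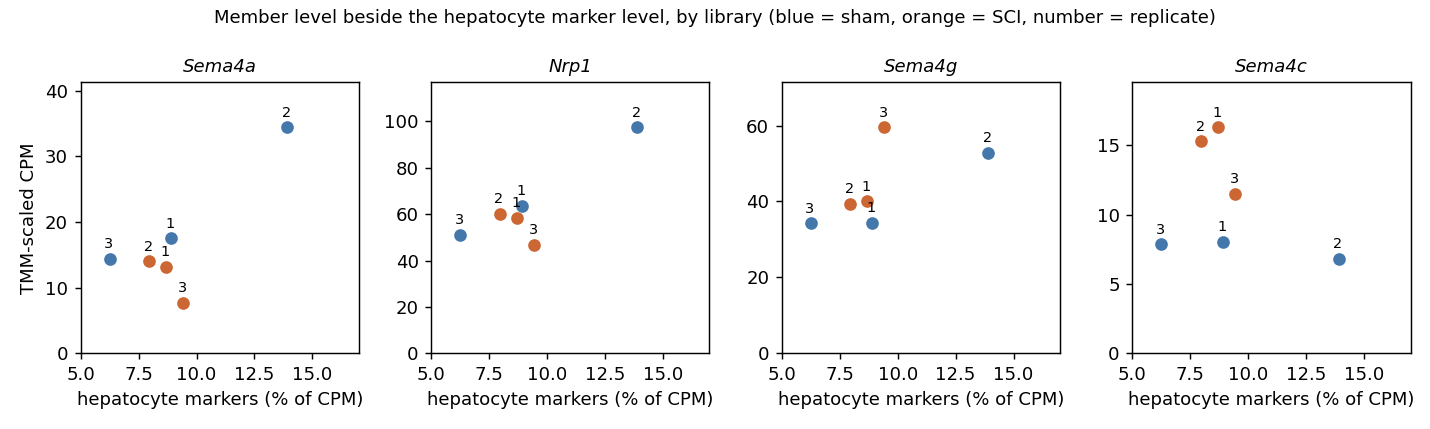
Level of 4 members (TMM-scaled CPM) against the share of CPM in 22 hepatocyte markers, 1 point per library. Sema4a and Nrp1 are highest in sham 2, the library with 13.9% hepatocyte transcripts, whereas Sema4c is lowest there. Sema4g is highest in SCI 3 (59.5 CPM), the library with the next largest share (9.43%), followed by sham 2 (52.9 CPM).

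Plexins and neuropilins, the signalling and ligand-binding receptors of semaphorins, formed the most abundant receptor group, with 279 ± 28.6 CPM in sham and 266 ± 15.2 CPM in SCI. All 11 members had overlapping groups, 7 were positive, the median log2 fold change was 0.10, and in 9 the 95% interval excluded a 2-fold difference. Nrp1, a co-receptor for class 3 semaphorins and for VEGF, had the highest level of all members, at 63.7, 97.4 and 51.0 CPM in sham and 58.4, 60.1 and 46.6 CPM in SCI. Sham 2 stood above the other libraries, and the fold change was -0.37 ± 0.22 (SE, adjusted p = 0.808). It was -0.07 ± 0.18 without sham 2. Nrp2, its relative, was at 29.8 to 39 CPM in sham and 28.1 to 35.7 CPM in SCI.

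Plxnb2, a receptor for class 4 semaphorins including Sema4c, had a log2 fold change of 0.00 ± 0.20, with a 95% interval of -0.43 to 0.44. Of the 4 plexin-A receptors, which signal for neuropilins, Plxna1 was at 0.14 ± 0.22, Plxna2 at -0.17 ± 0.19 and Plxna4 at 0.10 ± 0.19. Plxna3 was at 0.38 ± 0.33, and its 95% interval of -0.33 to 1.09 reached past 2-fold. Plxna2 overlaps 4 genes on its own strand, so its counts are uncertain, and Plxna4 overlaps 3 on the opposite strand, whose reads cannot be told apart if strand was not used. Plxnd1, the endothelial receptor of Sema3e, had the smallest p in the family, at 2.76, 2.7 and 2.17 CPM in sham and 5.56, 2.6 and 5.75 CPM in SCI. SCI 2 lay among the sham values, and the fold change of 0.83 ± 0.39 was not called (adjusted p = 0.684).

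Ephrin-A ligands, which are anchored to the membrane by a lipid, were low, with a summed 29.1 ± 1.06 CPM in sham and 30.0 ± 5.97 CPM in SCI. The 4 tested members had a median log2 fold change of -0.07, and 2 were positive. Efna5, the most abundant, was at 10.4, 11.1 and 7.32 CPM in sham and 11.4, 11.7 and 8.52 CPM in SCI, with overlapping groups (0.11 ± 0.25, SE). Efna3 had the smallest p of these genes, at 6.96, 2.89 and 8.13 CPM in sham and 7.98, 11.4 and 4.76 CPM in SCI. Sham 2 was the low library, and the fold change was 0.51 ± 0.39 (adjusted p = 0.872). It was 0.12 without sham 2 and 0.17 without SCI 2. Efna1, Efna3 and Efna4 lie side by side on chromosome 3, from 89271733 to 89338028. Their values did not share a sign, with Efna1 at -0.26 ± 0.29, and Efna4 had 8 counts in sham and 9 in SCI.

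Transmembrane ephrin-B ligands summed to 59.4 ± 4.30 CPM in sham and 65.4 ± 8.69 CPM in SCI, with a median log2 fold change of 0.22 over 3 members. Efnb3, a midline barrier of the cord for corticospinal axons, made up most of that, at 42.4, 33.4 and 47.4 CPM in sham and 53.4, 53.0 and 35.9 CPM in SCI. The groups overlapped, and the fold change was 0.22 ± 0.20 (SE), with a 95% interval of -0.21 to 0.66. Efnb2, which marks arterial endothelium among other cells, was at 3.55, 3.27 and 2.98 CPM in sham and 3.02, 4.76 and 6.94 CPM in SCI, and SCI 1 lay within the sham range (0.54 ± 0.37, adjusted p = 0.851). Efnb1 was at -0.22 ± 0.23.

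EphA receptors summed to 86.8 ± 18.3 CPM in sham and 77.2 ± 7.44 CPM in SCI, and 4 of 6 tested members were negative, with a median log2 fold change of -0.23 (-0.070 without sham 3). Epha4, the receptor through which corticospinal axons read Efnb3, was the most abundant of them, at 37.8, 28.5 and 43.7 CPM in sham and 30.8, 35.5 and 30.1 CPM in SCI. Its groups overlapped, and the 95% interval of -0.60 to 0.25 excluded a 2-fold difference (-0.17 ± 0.20, SE). Epha7 had the smallest p, at 4.86, 6.93 and 7.05 CPM in sham and 3.51, 4.91 and 2.58 CPM in SCI. SCI 2 was above sham 1, so the groups overlapped, and the fold change of -0.75 ± 0.34 did not pass (adjusted p = 0.654). Epha10 was at 4.33 CPM in sham 2 and at 11.5 to 14.2 CPM in the other 5 libraries.

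The EphB receptors, which bind ephrin-B ligands, were positive in 4 of 5 members, with a median log2 fold change of 0.20 (0.0064 without sham 2 and 0.0081 without SCI 2) and a summed level of 75.2 ± 13.9 CPM in sham and 83.4 ± 15.8 CPM in SCI. Most of that level was Ephb1, at 55.7, 48.7 and 71.8 CPM in sham and 65.4, 72.6 and 49.0 CPM in SCI (0.10 ± 0.20, SE, groups overlapping). Ephb1 overlaps 9 other annotated genes, 3 of them on its own strand, so its counts are uncertain. The same limit holds for other members with overlaps on their own strand. Among them are Slit2 (2 genes) and Nrp1, Nrp2, Robo2, Epha4 and Sema4a (1 each). Next to the value of Ephb3 given above, Ephb2 was at 0.26 ± 0.38 and Ephb6 at 0.20 ± 0.28. Ephb4, which marks venous endothelium, was at -0.25 ± 0.50, and its 95% interval of -1.32 to 0.82 left it poorly resolved.

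**Figure D4:**
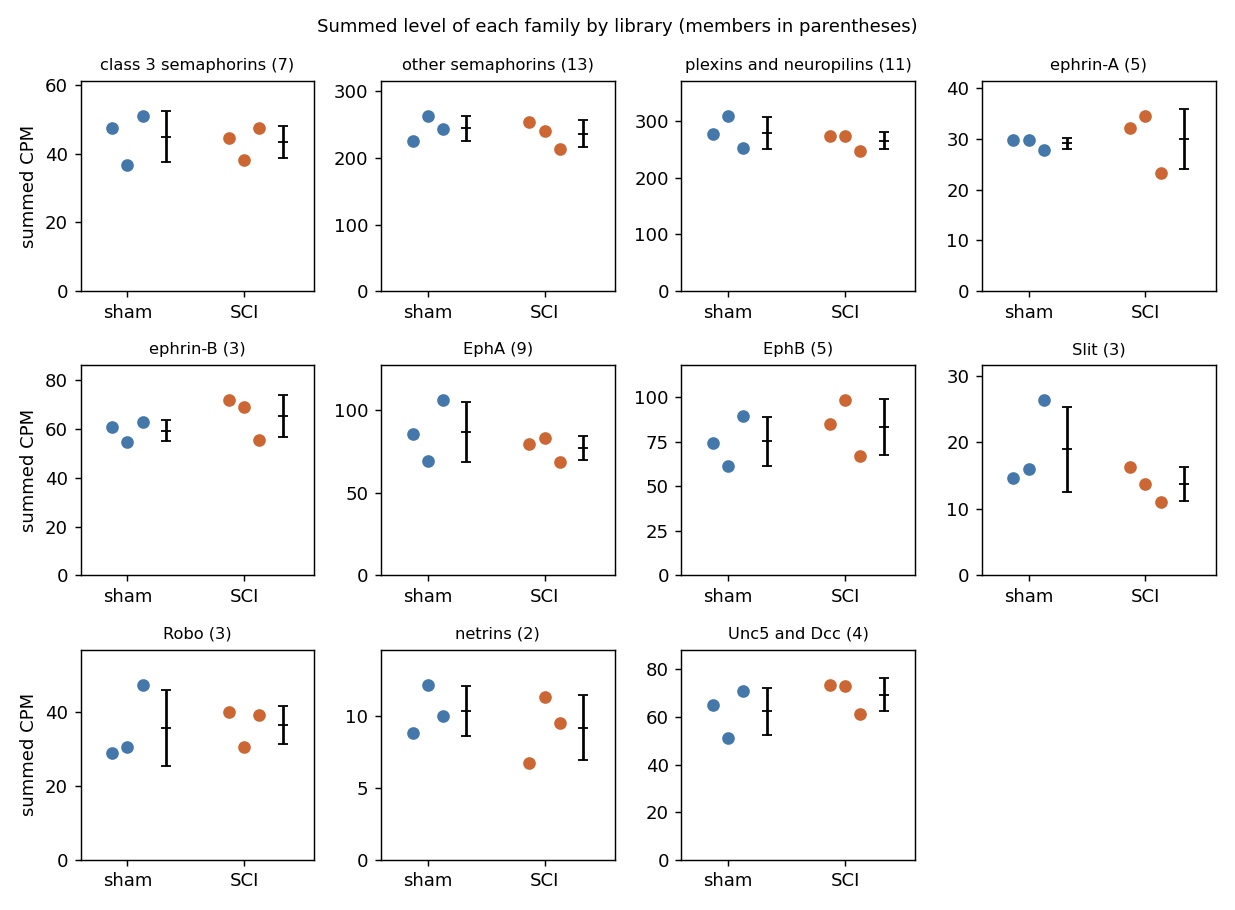
Summed TMM-scaled CPM of the members of each family, 1 point per library, with the mean ± SD of each group in black and the number of members in parentheses. The sham and SCI points overlap in all 11 families.

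Slits, large secreted repellents, and their Robo receptors gave no shared direction. Slit2 was the only Slit with a level above 4 CPM, at 12.5, 14.6 and 23.0 CPM in sham and 12.5, 11.5 and 9.12 CPM in SCI. Sham 3 stood high, and sham 1 was above SCI 1 by less than the rounding of these values. The log2 fold change of Slit2 was -0.55 ± 0.26 (SE, adjusted p = 0.676), and it was -0.29 ± 0.26 without sham 3 (adjusted p = 0.792). Slit1 had a value of 0.53 ± 0.56 and Slit3 had 9 counts in sham and 5 in SCI.

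Robo2, the most abundant Robo, was at 17.7, 15.9 and 33.1 CPM in sham and 24.8, 16.9 and 16.9 CPM in SCI. Sham 3 was again the high library, and the sign of its fold change depended on it, at -0.14 ± 0.28 with all libraries and 0.23 ± 0.24 without sham 3. Robo4, the endothelial member of the family, was at 6.30, 8.09 and 4.88 CPM in sham and 9.19, 9.53 and 15.7 CPM in SCI. Its groups did not overlap, SCI 3 was the high library, and the fold change of 0.78 ± 0.29 was not called (edgeR adjusted p = 0.485). Without SCI 3 it was 0.49 ± 0.30 (adjusted p = 0.973). Beside it, 10 endothelial markers summed to 380 to 580 CPM in sham and 473 to 515 CPM in SCI, with a median log2 fold change of -0.00 and 0 of 10 called. The markers did not share a direction: the groups did not overlap for Pecam1 (0.62 ± 0.25) and Ly6c1 (0.95 ± 0.26), which were higher, and for Cldn5 (-0.996 ± 0.538), which was lower. Cldn5 had few counts, at 1.71, 2.31 and 2.71 CPM in sham and 1.69, 1.01 and 0.396 CPM in SCI. Sham 1 and SCI 1 nearly touched, and SCI 3 was under the level of 3 counts in that library (0.559 CPM). The other 7 markers had overlapping groups and ran from -0.32 (Tek) to 0.35 (Cdh5). The part of endothelial content in the Robo4 difference was not tested. Robo1 was at -0.30 ± 0.32.

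Netrins, secreted cues that attract through Dcc and repel through Unc5 receptors, were the lowest family, with 10.4 ± 1.74 CPM in sham and 9.18 ± 2.26 CPM in SCI. Ntn1 was at 2.23, 1.54 and 1.63 CPM in sham and 0.846, 2.17 and 0.793 CPM in SCI, and SCI 2 lay within the sham range (-0.49 ± 0.54, SE, adjusted p = 0.925). Ntn4, a netrin of basement membranes, was at 6.56 to 10.7 CPM in sham and 5.92 to 9.10 CPM in SCI. Its log2 fold change of -0.13 ± 0.29 turned positive without sham 2 (0.084) and without SCI 1 (0.051).

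The netrin receptors summed to 62.3 ± 10.04 CPM in sham and 69.4 ± 7.02 CPM in SCI, and all 3 tested members had intervals inside a 2-fold difference. Unc5b, the most abundant, was at 42.0, 31.6 and 42.0 CPM in sham and 46.2, 45.3 and 35.7 CPM in SCI, with overlapping groups (0.15 ± 0.19, SE). Unc5c, with the smallest p, was at 16.5, 13.7 and 21.1 CPM in sham and 21.2, 20.2 and 19.8 CPM in SCI (0.28 ± 0.22, adjusted p = 0.872). Dcc, the attractive netrin receptor, had 30 counts in sham and 22 in SCI and was below the filter. The other members below it were Epha6, with 16 counts in sham and 17 in SCI, Epha8, with 6 and 15, Epha2, with 5 and 12, and Slit3 and Efna4, whose counts are given above. In CPM, 3 counts were 0.260 to 0.880 in these libraries, and differences in these 6 genes were not resolvable at this depth.

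Across the 65 members the mean level over the 6 libraries ran from 0.274 CPM (Slit3) to 62.9 CPM (Nrp1). Nrp1 was followed by Ephb1 (60.5 CPM), Sema6a (45.6), Efnb3 (44.3), Sema4g (43.3), Plxnb2 (40.7) and Unc5b (40.5). The per-library values of each of these neighbours overlapped, so their order is not resolved. Sham 2 was the lowest library for 23 of the 59 tested members, among them Epha10, Efna3 and Sema4c, and the highest for 12, among them Nrp1 and Sema4a. Sham 3 was the highest for 14, among them Robo2 and Slit2, and the lowest for 13, so neither library was high or low throughout.

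Other genes of the guidance pathway were read from 3 lists. Of 46 tested genes of intracellular guidance signalling, such as the collapsin response mediators, 0 were called by edgeR and 2 had an unadjusted p under 0.05, both positive, with a list median of -0.03. Over all genes 7.38% had such a p and 0.929% were called, so the list gave no more than the background. The 2 genes were Rgs3, which can bind the tail of ephrin-B proteins, at 1.65 ± 0.50 (adjusted p = 0.268), and Rnd1, a GTPase that binds plexins, at 0.89 ± 0.30 (adjusted p = 0.386). Rgs3 was at 1.05, 0.578 and 1.63 CPM in sham and 3.51, 2.45 and 3.37 CPM in SCI. Rnd1 was at 4.60 to 6.55 CPM in sham and 7.14 to 14.1 CPM in SCI. Neither overlapped, as for 7.73% of all genes in that direction. In the same list Dpysl4, below the filter, was also higher without overlap. Rock1 (-0.20 ± 0.18) and Ablim1 (-0.36 ± 0.17) were lower without overlap. The most abundant members, Rac1 and Enah, were at 0.07 ± 0.19 and 0.07 ± 0.23.

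Among 24 tested genes of other cues and receptors, 0 were called and 2 had an unadjusted p under 0.05, both negative (list median -0.05), which is near the 7.38% of all genes. Flrt2, an adhesion protein that binds Unc5 receptors, was at 18.6, 12.6 and 22.2 CPM in sham and 9.55, 11.3 and 12.1 CPM in SCI (-0.68 ± 0.25, adjusted p = 0.448). Rgma, a repellent that acts through neogenin, was at 24.8, 20.7 and 20.6 CPM in sham and 15.6, 17.3 and 10.5 CPM in SCI (-0.60 ± 0.23, adjusted p = 0.484). Every SCI library was below every sham library for both genes, as for 5.94% of all genes. In the other direction Islr2 was higher without overlap, as for 7.73% of all genes. It was at 1.44, 0.867 and 1.36 CPM in sham and 1.93, 2.02 and 1.98 CPM in SCI (0.73 ± 0.49, adjusted p = 0.836 by edgeR). The most abundant of that list, Cxcl12 and Cntn2, had fold changes of -0.25 ± 0.23 and 0.06 ± 0.19.

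Of 15 tested genes of myelin- and matrix-borne growth inhibition 0 were called, and 1 had an unadjusted p under 0.05 (list median -0.10), no more than the 7.38% of all genes. It was Rtn4rl1, a relative of the Nogo receptor, at 11.4, 14.2 and 12.2 CPM in sham and 6.17, 8.37 and 9.12 CPM in SCI (-0.69 ± 0.25, adjusted p = 0.440). Rtn4, which encodes Nogo, and Mag, both inhibitors of axon growth, had fold changes of -0.15 ± 0.22 and 0.35 ± 0.25 (SE).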

How the data were processed

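Each of the 6 libraries has a table deposited by the authors, holding raw counts (whole numbers) for Ensembl genes. Per the series' design text in the labels, RNA was extracted with TRIzol and a Qiagen kit, libraries were Lexogen QuantSeq Forward (3′ end, single-end reads of 50 bases), and reads were aligned with STAR 2.7.2b to mm10 with Ensembl 96. DESeq2 1.24.0 is also listed, per the submitters' processing notes. How reads were counted, with which strand and multimapping settings, is not stated there. Symbols and positions came from GENCODE M21 (GRCm38), which held 42548 of 43432 identifiers. Identifiers without a symbol held 0.0796% of counts.

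Genes passing edgeR's filterByExpr (13560) were scaled by TMM and compared, SCI against sham, with the robust quasi-likelihood F test and no covariate (edgeR 4.0.16 in R 4.3.3). A call is an adjusted p under 0.05, by Benjamini-Hochberg across the 13560 genes. Fold changes are log2 and computed here, with a prior count of 0.125. The SE is the size of the log2 fold change over the square root of F, and 95% intervals use the test's degrees of freedom. Libraries of a group differed beyond sampling noise in every pair (chi-square per degree of freedom 6.97 to 38.0). Members, lists and alternatives were chosen with earlier results of these data known. Genes named are, in each family, the one with the smallest p and the most abundant one, every member with an unadjusted p under 0.05, and in the pathway lists the 2 most abundant genes, as fixed by rule. Others named were chosen after their values were seen, among them Pecam1, Ly6c1, Cldn5, Tek, Cdh5, Pf4, S100a8, S100a9, Camp, Mmp9, P2ry12, Plxna3, Ephb2, Sema4g, Epha10, Sema3g, Rgs3, Rnd1, Flrt2, Rgma, Islr2 and Rtn4rl1. The fit was tested on simulated data. Alternatives were other scalings, filters and tools (DESeq2 1.42.0, limma 3.58.1), each library left out, a block for replicate number, and a covariate for hepatocyte level. The design text gives 3 mice per group, and p-values measure the spread between them. Depth was 3407176 to 11543633 counts, and the limit of 3 counts covers counting error only.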

Additional observations from a re-analysis of the deposited data

How the results depend on the processing

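The numbers of guidance genes called were 0 higher and 0 lower in the reported fit and in 13 of 14 alternatives each. The exceptions were 1 higher with the hepatocyte level as a covariate (Sema4c) and 1 lower with no filter on low counts (Sema4a). Without single libraries they were 0 higher and 0 lower throughout. Over all genes, 120 were called higher (62 without sham 1) and 6 lower. The counts were 182 and 42 with no filter, 213 and 28 with the hepatocyte covariate, and 62 to 132 and 1 to 14 without single libraries. With the replicate number as a block they were 81 and 1. Equal numbers in the 2 groups are not stated to share a litter or day. The deviations of equally numbered libraries from their group means correlated at -0.0848, -0.0654 and -0.172. Deviations from the mean of so few libraries are tied to each other, so these values cannot show whether the numbers pair the libraries. Of the 22 genes named by rule, 18 kept their sign in all 14 alternatives. Without single libraries, Efna5 ran from -0.019 to 0.23, Ephb1 from -0.030 to 0.26, Ntn4 from -0.31 to 0.084 (0.051 without SCI 1) and Robo2 from -0.36 to 0.23. Family medians moved by more than the spread between libraries only when a library was left out. Those of other semaphorins ran from -0.019 to 0.11, plexins and neuropilins from -0.015 to 0.13, Robo from -0.36 to 0.23 and netrins from -0.69 to -0.093. The other medians ran from -0.12 to 0.075 for class 3 semaphorins, -0.10 to 0.089 for ephrin-A, 0.080 to 0.33 for ephrin-B, -0.32 to -0.070 for EphA, 0.0064 to 0.26 for EphB, -0.30 to 0.37 for Slit and 0.041 to 0.26 for Unc5 and Dcc. The median over all members ran from 0.0064 to 0.083. Genes that kept their sign but moved by over 1.5 times without a single library, beside those given in the report, were Efnb2 (0.22 to 0.81), Efnb3 (0.080 to 0.37), Epha4 (-0.34 to -0.040), Ntn1 (-1.12 to -0.24), Sema3a (-0.68 to -0.27), Unc5b (0.0085 to 0.25) and Unc5c (0.12 to 0.44). The median over all genes lay between -0.024 (without SCI 3) and 0.020 in all alternatives. Depth limits the 6 members under the filter and those with few counts. The causes were not tested.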
